A study of Macaca mulatta with 10 samples.

Results

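The MCM helicase and replication licensing genes were followed through the differentiation of ORMES6 cells, a line of rhesus macaque embryonic stem (ES) cells. The genes were MCM2, MCM3, MCM4, MCM5, MCM8, MCM10 and CDC6, and every probe set that the platform annotation assigns to one of them was taken, whatever its values. This gave 13 of the 44210 tested probe sets, 4 of them for MCM4, 2 each for MCM5, MCM8 and CDC6, and 1 each for MCM2, MCM3 and MCM10. All 13 enter every comparison, since no filter on low values was applied.

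The RNA of 5 groups was hybridised to Affymetrix arrays for the rhesus macaque, with 2 arrays for each group. The groups were cells at the third stage of in vitro differentiation (IVDS3), the centre of the colonies at stage 2 (IVDS2-C), their periphery (IVDS2-P), differentiated cells at stage 2 taken without such a split (IVDS2), and undifferentiated ES cells (ES). All groups derive from this 1 line, so they do not show how other lines behave, and the labels give no days for the stages. The ES cells grew on mouse embryonic fibroblast feeders with bFGF, and were driven to differentiate by growing them together with hESdF, fibroblast-like cells that had themselves been made from human ES cells. Nothing in the labels says that replicate arrays stand for independent cultures. The p-values therefore reflect only how far these particular samples scatter, which may be technical.

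Before a cell can copy its DNA, each replication origin must be licensed. In the G1 phase the origin recognition complex and CDC6, with CDT1, load a ring of MCM proteins (MCM2 to MCM7) onto DNA, and in S phase CDC45 and the GINS complex, helped by MCM10, turn this ring into the active helicase that unwinds the fork. The genes are E2F targets that are expressed in proliferating cells and shut down in cells that leave the cycle, and pluripotent stem cells, which divide fast with a short G1 phase, are known for high levels of MCM proteins. MCM8 is a relative outside this ring that works with MCM9 in homologous recombination.

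The values are log2 expression values in which each probe set was set to 0 at its median over the 10 arrays. They show differences between arrays, and give no level of one gene against another. ES cells had the highest mean of the pluripotency markers (1.27 and 1.42 on the log2 scale for 8 measured of 10), and IVDS3 the lowest (-2.31 and -2.19), although NANOG was higher in IVDS3 (1.48 ± 0.19 (SE), adjusted p = 0.00026). Of the liver cell markers, 6 of 10 were measured. In IVDS3 against ES, 3 of these were called lower (APOA1, AFP and APOB) and 0 higher. Of all genes, 28.6% were called lower and 21.1% higher in that comparison. APOA1 was no longer called once ES replicate 1 or IVDS3 replicate 1 was left out, nor APOB once either of these or IVDS3 replicate 2 was. The 2 IVDS2-C arrays stand apart from each other: replicate 2 lay further from ES than replicate 1 in the means of the pluripotency markers (-1.25 against -0.27) and of the interferon response list (3.07 against 1.25). How calls in IVDS2-C against ES or IVDS2-P changed without replicate 2 is therefore also described.

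In IVDS3 cells, all 7 genes had fallen to well below their level in ES cells, by 3.22-fold for MCM8 to 10.1-fold for MCM3 in the mean of a gene's probe sets. A fall of 3.85-fold for MCM4 includes a probe set that hardly varied. Among the probe sets, 12 of 13 were called lower (limma, adjusted p under 0.05 over all tested probe sets), where 19.9% of all tested probe sets were called lower. The median log2 fold change of the 13 was -2.74, beside -0.11 for all tested probe sets. In these mixed samples, fewer cells of a type and less RNA per cell cannot be told apart.

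The loading factor CDC6 had values of -2.96 and -2.45 on the 2 IVDS3 arrays, against 0.83 and 0.38 in ES, by its first probe set. Its log2 fold change was -3.31 ± 0.30 (SE, adjusted p = 3.51e-05), and the second probe set gave -3.09 ± 0.26 (adjusted p = 2.3e-05). The 2 CDC6 probe sets therefore differed by less than their standard errors.

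In the helicase ring, MCM3 lay at -3.17 and -2.82 in IVDS3, against 0.47 and 0.20 in ES. This was the largest fall of the set, with a log2 fold change of -3.33 ± 0.23 (SE, adjusted p = 7.54e-06), and it ranked 109 from the lowest among the 44210 tested probe sets. MCM2, whose N-terminal tail also binds histones, lay at -2.84 and -2.44 in IVDS3, against 0.33 and 0.19 in ES (log2 fold change -2.90 ± 0.23, adjusted p = 1.82e-05). For MCM5, the first probe set read -2.63 and -2.33 in IVDS3, against 0.59 and 0.38 in ES. Its log2 fold change was -2.97 ± 0.20 (SE), and that of the second probe set was -2.74 ± 0.25, so both pointed to the same size of fall. In each of these genes both IVDS3 arrays lay far below both ES arrays. Such a separation, of any size, was found for 13 of 13 probe sets and for 39.9% of all tested probe sets.

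MCM4, another subunit of the ring, gave a split picture. The probe sets MmugDNA.1968.1.S1_at, MmugDNA.1968.1.S1_s_at and MmugDNA.1969.1.S1_at had log2 fold changes of -2.57 ± 0.27, -2.68 ± 0.21 and -2.35 ± 0.22 (SE), with adjusted p of at most 7.63e-05. The first of them read -2.19 and -1.63 in IVDS3, against 0.91 and 0.41 in ES. The fourth, MmugDNA.25349.1.S1_at, read 0.0043 and 0.0128 in IVDS3, against 0.18 and 0.23 in ES (log2 fold change -0.20 ± 0.13, adjusted p = 0.259). Its values spanned 0.45 over all 10 arrays, less than the median span of 0.75 over the tested probe sets, and it was called in 0 of the 7 comparisons made. Why it differs from the other MCM4 probe sets was not tested. Without it, the MCM4 gene value had a log2 fold change of -2.53 in IVDS3 against ES, an alternative chosen after seeing the data, against -1.95 with it.

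MCM10, which binds the helicase as origins fire, lay at -3.02 and -2.69 in IVDS3, against 0.56 and 0.16 in ES (log2 fold change -3.21 ± 0.27 (SE), adjusted p = 2.39e-05). MCM8 had the smallest fall of the 7 genes. Its first probe set read -2.01 and -1.42 in IVDS3, against 0.39 and 0.05 in ES (log2 fold change -1.93 ± 0.23, adjusted p = 0.000154). The second read -1.35 and -1.14 in IVDS3, against 0.52 and -0.12 in ES (log2 fold change -1.45 ± 0.25, adjusted p = 0.00135). Both IVDS3 arrays stood below both ES arrays for either probe set. Probe sets can differ in how they respond to the same change in RNA, and whether MCM8 fell less than the others was not tested.

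**Figure D1:**
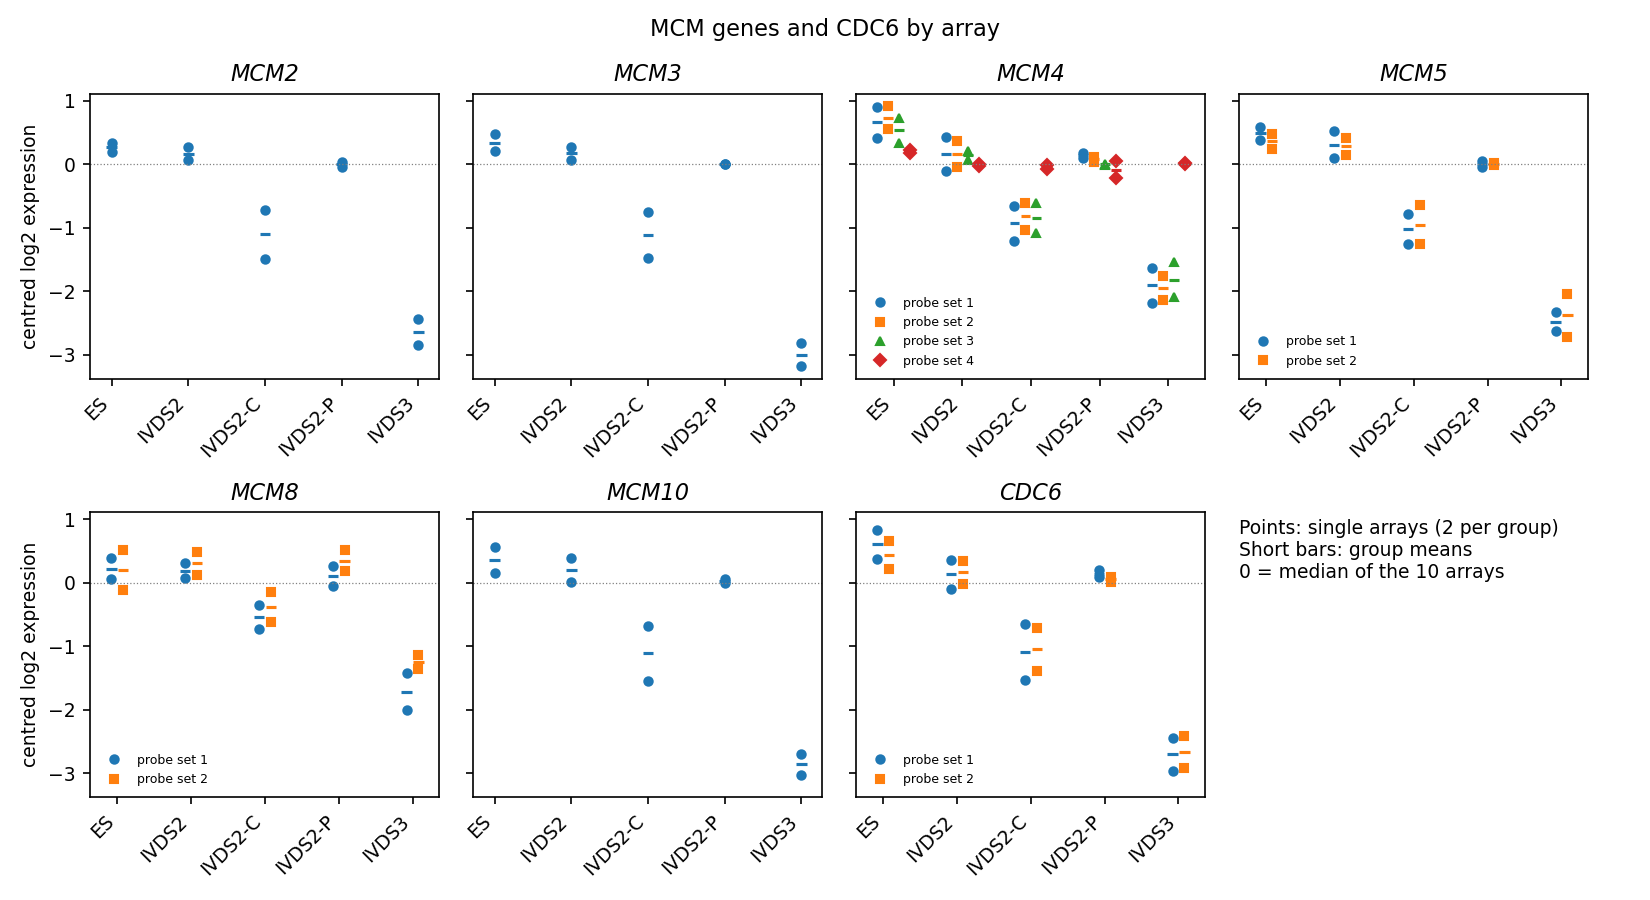
Centred log2 expression (vertical axis, 0 at the median of the 10 arrays) of each probe set on each array, by gene, in order of the groups ES, IVDS2, both areas of the stage 2 colonies, and IVDS3. Points are single arrays and short bars are group means. The IVDS3 points are the lowest in every gene and the IVDS2-C points the next lowest, apart from the fourth MCM4 probe set, which stays near 0.

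At stage 2, the set was lower in the centre of the colonies and not called in the periphery or in undivided IVDS2 cells. In IVDS2-C, 11 of 13 probe sets were called lower than in ES (background 10.2% of tested probe sets), with at least 1 probe set called for each of the 7 genes. The median log2 fold change was -1.44, beside -0.08 for all tested probe sets. Both IVDS2-C arrays lay below both ES arrays for 13 of 13 probe sets, and for 35.4% of all tested probe sets. The largest fall was that of the first CDC6 probe set, with -0.65 and -1.54 in IVDS2-C against 0.83 and 0.38 in ES (log2 fold change -1.70 ± 0.30 (SE), 3.24-fold, adjusted p = 0.00392). MCM3 read -0.75 and -1.47 in IVDS2-C, against 0.47 and 0.20 in ES (log2 fold change -1.44 ± 0.23, adjusted p = 0.00224). MCM10 read -0.68 and -1.54, against 0.56 and 0.16 in ES (log2 fold change -1.47 ± 0.27, adjusted p = 0.00499). For each of these 3 genes the second IVDS2-C array was the lower one, and neither array overlapped ES.

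The same held for MCM2 at -0.73 and -1.49 in IVDS2-C against 0.33 and 0.19 in ES (log2 fold change -1.37 ± 0.23 (SE), adjusted p = 0.00329). The first MCM5 probe set read -0.78 and -1.25 in IVDS2-C against 0.59 and 0.38 in ES (log2 fold change -1.50 ± 0.20, adjusted p = 0.000973). In MCM4, the second probe set read -0.61 and -1.04 in IVDS2-C against 0.91 and 0.55 in ES (log2 fold change -1.55 ± 0.21, adjusted p = 0.00107). MCM8 was again the exception among the genes. Its first probe set read -0.35 and -0.72 in IVDS2-C against 0.39 and 0.05 in ES (log2 fold change -0.76 ± 0.23, adjusted p = 0.0424), a call lost in all but 3 of the 10 fits that each left out 1 array. Only the fits without IVDS2-C replicate 1 or either IVDS3 array kept it. The second MCM8 probe set (-0.58 ± 0.25, adjusted p = 0.128) and the fourth of MCM4 (-0.25 ± 0.13, adjusted p = 0.201) were not called. Without IVDS2-C replicate 2, calls against ES became fewer among the 13 and over all tested probe sets. The median log2 fold change of the 13 was then -1.08, beside -0.07 for all tested probe sets.

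In the periphery, 0 of 13 probe sets were called lower or higher than in ES by limma (4 at unadjusted p under 0.05), where 2.58% of tested probe sets were called lower. The median log2 fold change was -0.36. The arrays did not overlap for 11 of the 13, with IVDS2-P below ES, which 29.8% of all tested probe sets also showed. The largest difference was that of the second MCM4 probe set, at 0.11 and 0.04 in IVDS2-P against 0.91 and 0.55 in ES (log2 fold change -0.65 ± 0.21 (SE), 95% interval -1.13 to -0.17, adjusted p = 0.102). For MCM3, at 0.0017 and -0.0017 in IVDS2-P, the 95% interval of the log2 fold change was -0.85 to 0.18. That interval leaves room for a modest fall and not for one of the size measured in IVDS3.

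Undivided IVDS2 cells gave a like result, with 0 of 13 probe sets called in either direction against ES (1 at unadjusted p under 0.05, background 3.79% called lower). The median log2 fold change was -0.18. MCM3 read 0.07 and 0.26 in IVDS2 against 0.47 and 0.20 in ES (95% interval of the log2 fold change -0.69 to 0.35). The first CDC6 probe set read -0.09 and 0.36 in IVDS2 against 0.83 and 0.38 in ES (95% interval -1.15 to 0.21). IVDS2 and ES arrays overlapped for 9 of the 13 probe sets. In the other 4, both IVDS2 arrays lay below both ES arrays, as they did for 24% of all tested probe sets.

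**Figure D2:**
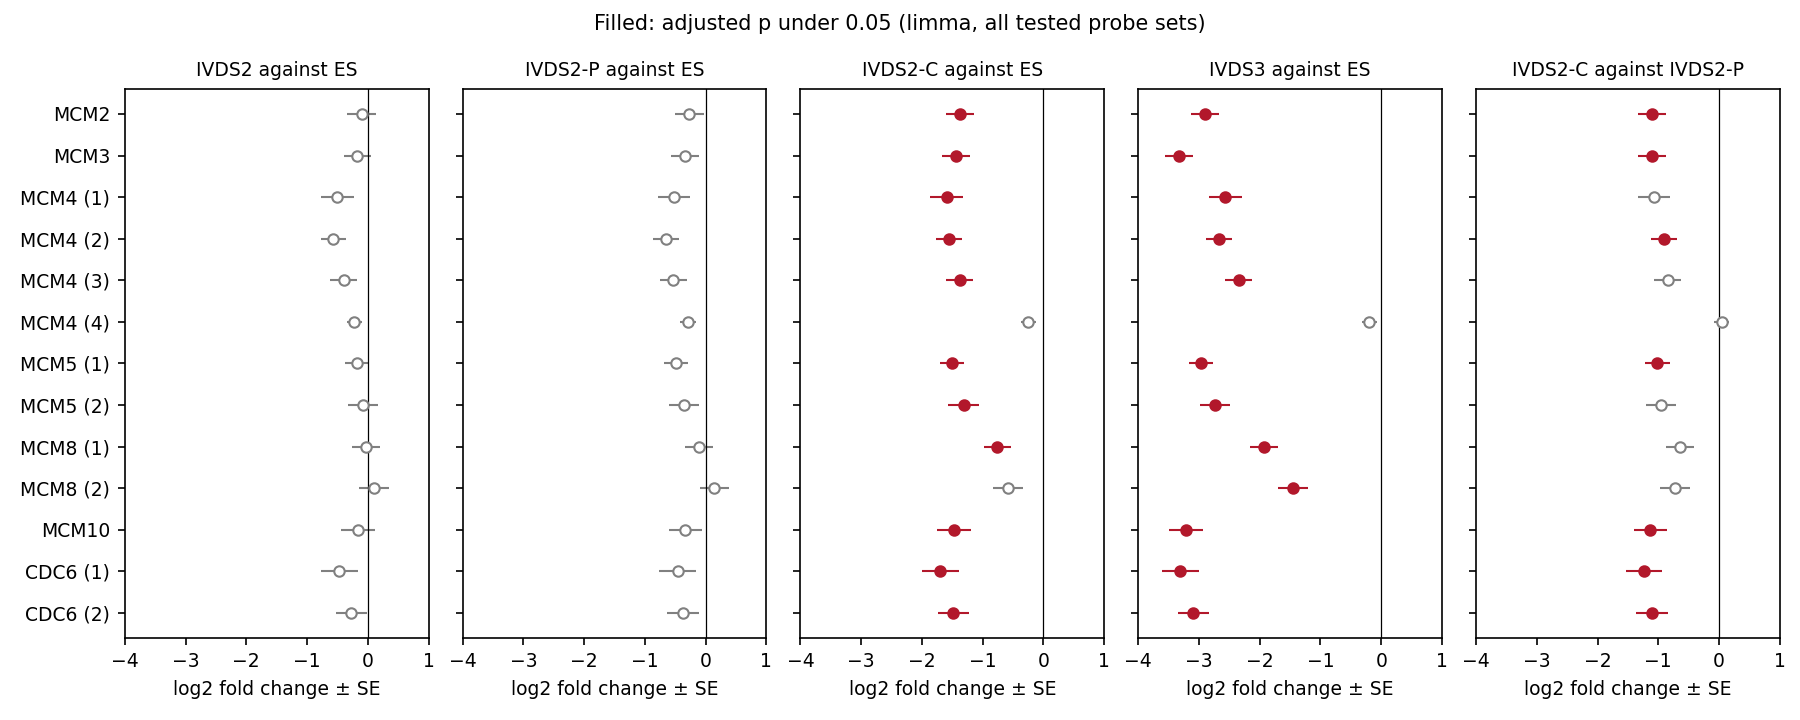
Log2 fold change with its standard error (horizontal axes) of the 13 probe sets in 5 comparisons, with numbers in brackets for the probe sets of 1 gene. Filled points had an adjusted p under 0.05. There are 12 filled points for IVDS3 against ES, 11 for IVDS2-C against ES, 7 for IVDS2-C against IVDS2-P and 0 for IVDS2 or IVDS2-P against ES.

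The centre was also set against the periphery directly, which is the test of whether the 2 areas differed. In IVDS2-C, 7 of 13 probe sets were called lower than in IVDS2-P (background 2.00%), from 6 of the 7 genes, and the median log2 fold change was -1.02. They were those of MCM2, MCM3 and MCM10, both of CDC6, the first of MCM5 and the second of MCM4. The first CDC6 probe set read -0.65 and -1.54 in IVDS2-C, against 0.19 and 0.09 in IVDS2-P (log2 fold change -1.24 ± 0.30 (SE), 2.35-fold, adjusted p = 0.0454). MCM2 read -0.73 and -1.49 in IVDS2-C, against 0.04 and -0.04 in IVDS2-P (log2 fold change -1.11 ± 0.23, adjusted p = 0.0263). The first MCM5 probe set had the smallest adjusted p (log2 fold change -1.02 ± 0.20, adjusted p = 0.0202). In 12 of 13 probe sets, both centre arrays lay below both periphery arrays, which 30.4% of all tested probe sets also showed. The MCM8 probe sets, with -0.64 ± 0.23 and -0.73 ± 0.25, were not called (adjusted p = 0.145 and 0.127).

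The calls between centre and periphery were not firm. All member calls were lost without IVDS2-C replicate 2 or either of the IVDS2-P arrays, and fewer remained without either IVDS2 or either IVDS3 array. In each of these fits, fewer of all tested probe sets were called lower as well. With only the 4 arrays compared, 1 was called, and without IVDS2-C replicate 1, 10 were. With the first IVDS2-P array left out the median log2 fold change was -1.03, and with the second left out it was -0.97, close to the -1.02 over all arrays, and -0.70 without IVDS2-C replicate 2.

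From stage 2 to stage 3 the set dropped further. In IVDS3, 12 of 13 probe sets were called lower than in IVDS2 (background 15.0%), with a median log2 fold change of -2.66. MCM3 had the largest fall, at -3.17 and -2.82 in IVDS3 against 0.07 and 0.26 in IVDS2 (log2 fold change -3.16 ± 0.23 (SE), adjusted p = 1.61e-05). IVDS3 also lay below the colony centre, where 12 of 13 probe sets were called lower (background 7.17%) and the median log2 fold change was -1.43. MCM3 again led with -1.89 ± 0.23 (3.70-fold, adjusted p = 0.000643), and the second MCM8 probe set was the smallest call with -0.86 ± 0.25 (adjusted p = 0.0441). Against IVDS2-C, fewer of the 13 were called without IVDS3 replicate 1 or IVDS2-C replicate 1, with median log2 fold changes of -1.09 and -1.12. Fewer of all tested probe sets were called lower in these fits as well. Without IVDS2-C replicate 2 the median log2 fold change was -1.70. The fourth MCM4 probe set was the 1 that was not called in any of these contrasts.

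The group means, lowest to highest, stood in the order IVDS3, IVDS2-C, IVDS2-P, IVDS2, ES for every probe set except the fourth of MCM4, the second of MCM8 and the first of CDC6. In these last 2, IVDS3 and IVDS2-C still held the lowest places, and IVDS2-P lay above IVDS2. For the second MCM8 probe set, ES (0.20) also lay below IVDS2 (0.30) and IVDS2-P (0.35). At the upper end, neither IVDS2-P nor IVDS2 was called different from ES for any of the 13 probe sets. IVDS2-P and IVDS2 were not tested against each other.

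Within 4 of the 5 groups, nearly all probe sets differed in the same direction between the replicate arrays. Replicate 1 read above replicate 2 in 12 of 13 probe sets in ES, by a median of 0.36, and in all 13 in IVDS2-C, by a median of 0.55. In IVDS3 it read below replicate 2 in all 13, by a median of 0.41, and in IVDS2 in 12 of 13. IVDS2-P showed no such common shift, with replicate 1 above in 9 and below in 4, differences of -0.32 to 0.32 and a median of 0.06. Over all tested probe sets, the median difference between replicates was at most 0.03 in size in each group. The 13 probe sets are therefore not independent readings of a group. Leaving out the fourth MCM4 probe set, the Pearson correlation between any pair of them over the 10 arrays was 0.93 to 0.998, a description of values that share the same arrays.

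Further licensing genes were also lower in IVDS3. Of the 18 genes of that list 9 were measured, and 6 of them were called lower in IVDS3 than in ES and 0 higher, where 28.6% of all genes were called lower and 21.1% higher. The list median was -0.98, beside -0.13 for all genes. ORC1, the subunit of the origin recognition complex whose level varies with the cycle, read -2.80 and -2.03 in IVDS3 against 1.05 and 0.42 in ES (log2 fold change -3.15 ± 0.32 (SE), adjusted p = 5.74e-05). CDT1, which brings the MCM ring to the origin, fell by 2.49 ± 0.24 on the log2 scale (adjusted p = 4.05e-05), and its inhibitor geminin, GMNN, by 1.91 ± 0.27 (adjusted p = 0.000358). ORC3 had -2.01 ± 0.18, and ORC2 (-0.98 ± 0.17) and MCMBP (-0.95 ± 0.16), which binds MCM complexes, were the smaller called falls. The origin recognition subunits ORC4 (0.08 ± 0.20) and ORC5 (-0.29 ± 0.17) and the MCM8 partner MCM9 (0.04 ± 0.17) were not called. MCM6 and MCM7, the remaining subunits of the ring, and ORC6 were not analysed here.

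In the colony centre, 6 of the 9 were called lower than in ES (background 16.5% of genes lower and 13.7% higher), namely ORC1 (-1.86 ± 0.32 (SE)), GMNN (-1.37 ± 0.27), CDT1 (-1.08 ± 0.24), ORC3, MCMBP and ORC2. Against the periphery 4 were called lower (background 3.95% lower and 5.64% higher), namely ORC1 (-1.18 ± 0.32, adjusted p = 0.0495), GMNN (-1.07 ± 0.27, adjusted p = 0.0388), CDT1 and MCMBP. Among the genes of this list, MCMBP, ORC2, ORC4, ORC5 and MCM9 were picked after their values were seen, as was CDT1 for the contrasts of IVDS2-C.

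Genes that turn the loaded ring into an active helicase followed. For this list and those below, 28.6% of all genes were called lower and 21.1% higher in IVDS3 against ES. The shares were 16.5% lower and 13.7% higher in IVDS2-C against ES, and 3.95% lower and 5.64% higher in IVDS2-C against IVDS2-P. In the origin firing list, 13 of 14 measured genes were called lower in IVDS3 than in ES and 0 higher (median -1.46). The helicase component CDC45 read -2.35 and -2.05 in IVDS3, against 0.66 and 0.23 in ES (log2 fold change -2.65 ± 0.20 (SE), adjusted p = 1.44e-05). GINS2 (-2.52 ± 0.25) and GINS1 (-1.89 ± 0.16), subunits of the GINS complex, and the fork protein WDHD1 (-2.30 ± 0.29) fell as well. CLSPN, a checkpoint adaptor and the member that was not called, had -0.50 (adjusted p = 0.269). It was picked after its values were seen. In IVDS2-C, 10 of the 14 were called lower than in ES and 2 lower than in IVDS2-P, which were GINS2 (-1.08 ± 0.25, adjusted p = 0.0304) and CDC45 (-0.78 ± 0.20, adjusted p = 0.0433).

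At the replication fork, 12 of 16 measured genes were called lower in IVDS3 than in ES and 1 higher (median -1.43). The falls were led by RPA3 (-1.97 ± 0.19 (SE)) and RPA2 (-1.69 ± 0.23), which coat single-stranded DNA, RNASEH2A (-1.94 ± 0.15), which removes RNA primers, and POLA2 (-1.84 ± 0.22) of the primase complex. The higher one, named after its value was seen, was POLD4 (0.42, adjusted p = 0.00893), which was not called when IVDS3 replicate 1 was left out. In IVDS2-C, 9 of the 16 were called lower than in ES, and 5 lower than in IVDS2-P, among them RPA2 (-0.86 ± 0.23, adjusted p = 0.0482) and PCNA, the sliding clamp (-0.85 ± 0.20, adjusted p = 0.0319). RPA3, POLA1 and RNASEH2A, named after their values were seen, made up the rest.

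Genes for chromatin assembly behind the fork and for nucleotide supply were mixed. In the chromatin assembly list, 5 of 8 were called lower in IVDS3 than in ES and 1 higher (median -1.63). UHRF1 (-2.40 ± 0.27 (SE)), which guides maintenance methylation, and the histone chaperones CHAF1A (-2.29 ± 0.19), ASF1B (-2.26 ± 0.23) and NASP (-2.14 ± 0.19) led the falls. The higher one was the methyltransferase DNMT1 (0.63, adjusted p = 0.0445), named after its value was seen. It was not called in the fits without ES replicate 1, IVDS3 replicate 1 or any single array of the colony centre or periphery. In IVDS2-C, 4 of the 8 were called lower than in ES and 2 lower than in IVDS2-P, CHAF1A (-0.85 ± 0.19, adjusted p = 0.0255) and NASP (-0.81 ± 0.19, adjusted p = 0.0331).

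In the nucleotide supply list, 4 of 5 were called lower in IVDS3 than in ES and 1 higher (median -1.37). Falls included thymidylate synthase TYMS (-1.51 ± 0.15 (SE)), the reductase subunit RRM1 (-1.38 ± 0.18) and the kinase DTYMK (-1.37 ± 0.14). DUT, the dUTPase that keeps uracil out of DNA, went the other way in its single probe set, with 0.54 and 0.88 in IVDS3 against -1.95 and -2.65 in ES (log2 fold change 3.01 ± 0.35, adjusted p = 0.000131). It was also higher in IVDS2-C, at 1.16 and 1.99, than in IVDS2-P, at -0.69 and 0.18 (log2 fold change 1.83 ± 0.35, adjusted p = 0.0149), a call lost without IVDS2-C replicate 2 or IVDS2-P replicate 1. In IVDS2-C against ES, 2 of the 5 were called lower and 1 higher, where 16.5% of all genes were called lower and 13.7% higher.

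Of the repair genes listed with MCM8, 7 of 8 were called lower in IVDS3 than in ES and 0 higher (median -2.20), and MCM9 was not called. They included the nuclease EXO1 (-2.67 ± 0.25 (SE)), RAD51AP1 (-2.45 ± 0.23) and RAD54L (-2.36 ± 0.24) of strand exchange, and BRCA1 (-2.21 ± 0.20). In IVDS2-C, 7 of the 8 were called lower than in ES and 2 lower than in IVDS2-P, EXO1 (-0.97 ± 0.25, adjusted p = 0.0418) and BRCA1 (-0.79 ± 0.20, adjusted p = 0.0418).

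In the S phase control list, which holds cyclins, E2F factors and other regulators, 13 of 20 were called lower in IVDS3 than in ES and 2 higher (median -0.86). The cyclin CCNE1 (-2.34 ± 0.21 (SE)), the repressor E2F7 (-2.15 ± 0.24) and FBXO5 (-2.14 ± 0.23), an inhibitor of the anaphase-promoting complex, fell. The D-type cyclin CCND3 rose, at 2.55 and 2.94 in IVDS3 against -0.49 and 0.08 in ES (log2 fold change 2.95 ± 0.23, adjusted p = 1.69e-05), and CDK6 was the other rise (0.93, adjusted p = 0.00525, named after its value was seen). In IVDS2-C, 9 were called lower than in ES and 1 higher, and 4 were lower than in IVDS2-P, among them E2F7 (-1.02 ± 0.24, adjusted p = 0.0325) and FBXO5 (-0.90 ± 0.23, adjusted p = 0.0431). The cell cycle inhibitor CDKN1A, or p21, ran opposite to the MCM genes. It read 3.61 and 3.29 in IVDS3 against -0.75 and -0.41 in ES (log2 fold change 4.03 ± 0.21, adjusted p = 1.9e-06), and 1.38 and 1.82 in IVDS2-C against 0.20 and -0.25 in IVDS2-P (log2 fold change 1.62 ± 0.21, adjusted p = 0.00252). That last call held whichever array was left out. Of the 8 measured CDK inhibitors and RB family genes, 4 were called higher in IVDS3 than in ES and 0 lower (median 0.52), the others being RBL2 (0.98 ± 0.13), CDKN2C (0.76 ± 0.13) and CDKN2D (0.66 ± 0.14). In IVDS2-C, 2 were called higher than in ES, and 1 in 7 of the 10 fits that each left out 1 array, those without ES replicate 2 or any single array of IVDS2-C, IVDS2-P or IVDS3.

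Mitotic genes fell in IVDS3, where 8 of 8 were called lower than in ES (median -2.49), led by CCNB1 (-2.92 ± 0.24 (SE)), CCNB2 (-2.69 ± 0.34), TOP2A (-2.69 ± 0.25) and TPX2 (-2.65 ± 0.27). In IVDS2-C, 6 of the 8 were called lower than in ES (median -0.81) and 0 lower or higher than in IVDS2-P (median -0.43).

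Many of these list counts for the centre depended on single arrays, mostly IVDS2-C replicate 2 and ES replicate 1. Without IVDS2-C replicate 2, fewer list genes were called lower in IVDS2-C than in ES. This held for each of the licensing, firing, fork, chromatin, S phase, repair, nucleotide and mitosis lists, and the last 2 lost all lower calls. Fewer of all tested probe sets were called lower in that fit as well. For the 13 probe sets of the MCM genes and CDC6, the median log2 fold change in the same fit was -1.08. Without ES replicate 1, fewer genes of each of these lists were called lower, while more of all tested probe sets were. The median log2 fold change of the 13 was then -1.27. The 1 S phase gene called higher in IVDS2-C than in ES was not called without either IVDS2-C array. Against IVDS2-P, the licensing, firing, fork, chromatin, S phase and repair lists lost all lower calls without IVDS2-C replicate 2 or either IVDS2-P array. The licensing and repair lists also lost them without either IVDS2 array, and the S phase and repair lists without either IVDS3 array. In all of these fits, fewer of all tested probe sets were called lower than with all arrays. Of 20 named list genes called between centre and periphery, only CDKN1A, LUM, COL1A2, IFIT1 and IFIT3 held whichever array was left out. None of those from the licensing, firing, fork, nucleotide, chromatin, S phase or repair lists did. Between IVDS3 and ES, all list genes named for the largest changes held except APOA1 and APOB. Among those named after their values were seen, POLD4, DNMT1 and COL1A1 did not hold.

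Few of these genes were called in the other stage 2 groups. In IVDS2 against ES, ORC3 (-0.68 ± 0.18 (SE), adjusted p = 0.0401), TFDP2, a partner of E2F factors (-0.66 ± 0.14, adjusted p = 0.0168), and CCNB1 (-0.90 ± 0.24, adjusted p = 0.0387) were called lower, and DUT higher (2.08 ± 0.35, adjusted p = 0.00565). They are all the calls among the replication, cell cycle and repair lists there, where 6.23% of all genes were called lower and 6.50% higher. In IVDS2-P against ES, the polymerase subunit POLD1 (-0.43 ± 0.11, adjusted p = 0.0378) and the BRCA1 partner BARD1 (-0.71 ± 0.19, adjusted p = 0.0473) were called lower and DUT higher (2.04 ± 0.35, adjusted p = 0.00814), against 4.67% of all genes lower and 6.31% higher. These genes were named because the counts are small, after their values were seen. In IVDS3 against IVDS2, 6 of 9 further licensing genes and 13 of 14 origin firing genes were called lower (background 22.2% lower and 17.6% higher). Against IVDS2-C these counts were 3 and 9 (background 10.9% in either direction).

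**Figure D3:**
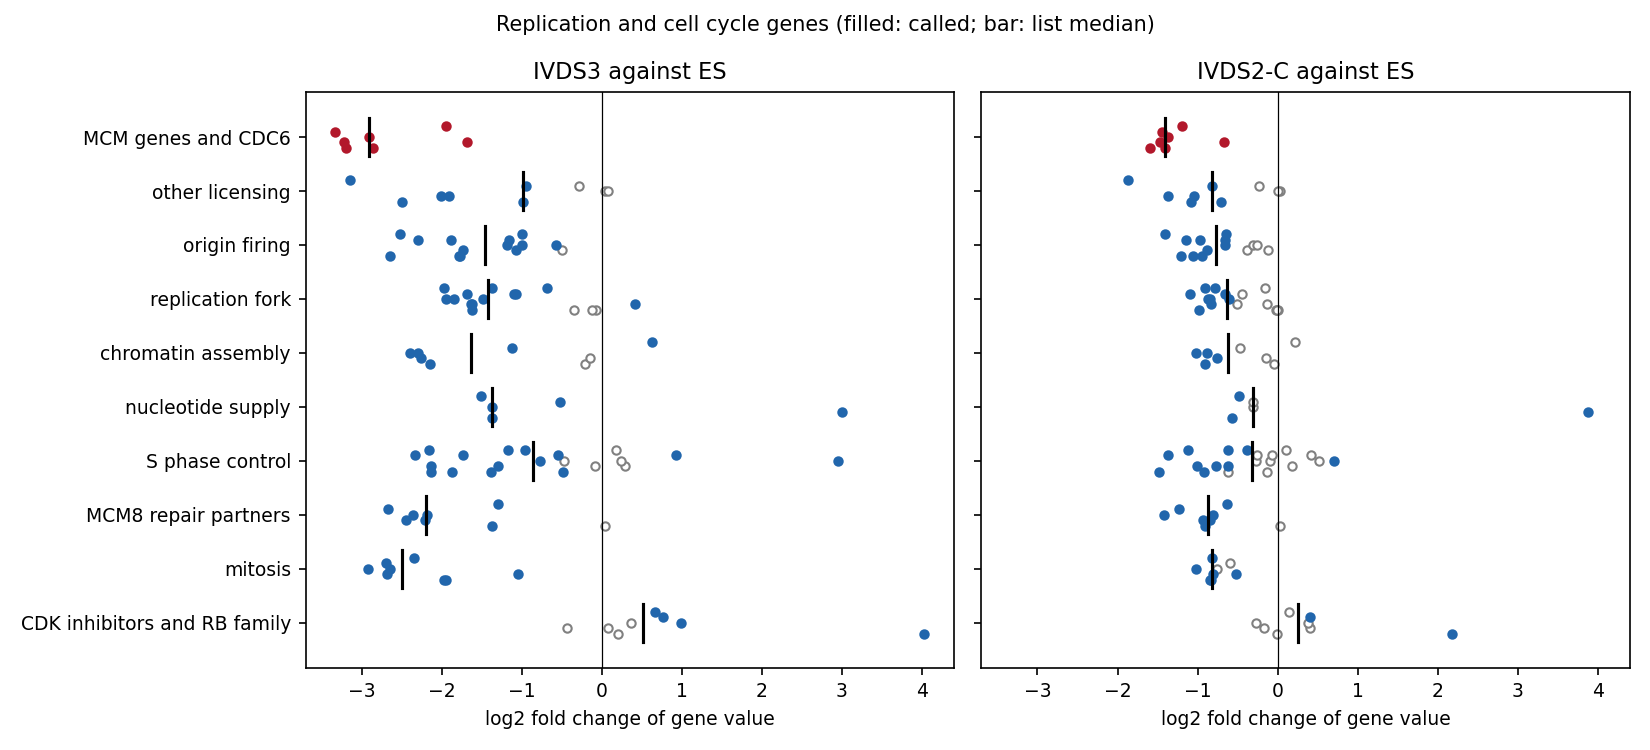
Log2 fold change of each measured gene (horizontal axis, mean of its probe sets) in 10 lists, for IVDS3 against ES (left) and IVDS2-C against ES (right). Filled points are called genes and black bars are list medians. The MCM genes and CDC6 are all filled and left of 0 in both panels, DUT and CCND3 lie far to the right in IVDS3, and CDKN1A lies right of 0 in both.

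Other cell types could add to these samples. Of 13 fibroblast markers 9 were measured, and in IVDS3 against ES 7 were called higher and 2 lower. Their mean was 1.60 and 1.47 on the IVDS3 arrays, 0.35 and 0.33 in IVDS2-C, -0.13 and -0.28 in IVDS2-P, -0.17 and 0.02 in IVDS2, and -0.04 and -0.13 in ES. LUM (5.48 ± 0.21 (SE)), DCN (4.57 ± 0.16) and COL1A2 (2.91 ± 0.16), which encode matrix proteins of fibroblasts, were higher in IVDS3 than in ES, and THY1 was lower (-1.31 ± 0.14). The other marker called lower was the collagen gene COL1A1, at 0.02 and -0.29 in IVDS3 against 0.69 and 0.52 in ES. It was named after its values were seen, and its call was lost when any single ES or IVDS3 array was left out. In IVDS2-C against IVDS2-P, 3 were called higher, among them LUM (2.36 ± 0.21) and COL1A2 (2.05 ± 0.16), and 1 lower. Without IVDS2-C replicate 2, 2 were called higher and 0 lower, and the lower call was also lost without IVDS2-C replicate 1 or IVDS2-P replicate 1. The centred values do not show which markers are absent from a sample. The part of such cells in the fall of the MCM genes was not tested.

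Interferon response genes moved in the opposite direction on the same arrays. All 10 measured were called higher in IVDS3 than in ES, led by IFIT1 (7.96 ± 0.71 (SE)), IFI27 (7.48 ± 0.61), IFIT3 (7.11 ± 0.63) and IFI44, which was 128-fold higher. In IVDS2-C, 6 were called higher than in ES and 6 higher than in IVDS2-P, led there by IFIT1 (4.84 ± 0.71) and IFIT3 (4.33 ± 0.63). Both counts were 6 without IVDS2-C replicate 2, while without IVDS2-P replicate 1 the count against IVDS2-P was 2. Their part in the fall of the MCM genes was not tested. The mean of the 7 genes was -2.56 and -2.15 on the IVDS3 arrays, -0.61 and -1.25 in IVDS2-C, 0.07 and 0.04 in IVDS2-P, 0.04 and 0.34 in IVDS2, and 0.54 and 0.22 in ES. POU5F1, which encodes OCT4, fell by 7.60 ± 0.79 on the log2 scale in IVDS3 against ES (adjusted p = 6.84e-05), beside falls of DPPA4 (-5.93 ± 0.53), DNMT3B (-5.25 ± 0.37) and SALL4 (-4.73 ± 0.36). In IVDS2-C, POU5F1 (-3.41 ± 0.79, adjusted p = 0.0305) and DPPA4 (-2.50 ± 0.53, adjusted p = 0.0226) were lower than in IVDS2-P, but both calls were lost without either IVDS2-P array, and that of POU5F1 also without IVDS2-C replicate 2 or either IVDS3 array. As a sign of RNA quality, the difference between the 3′ and 5′ actin control probe sets was 0.16 and -0.04 in IVDS3, -0.02 and -0.11 in IVDS2-C, 0.07 and -0.0021 in IVDS2-P, -0.03 and -0.23 in IVDS2, and -0.0027 and -0.24 in ES. Both probe sets are centred on their medians, so these differences only compare arrays and do not show whether the RNA was intact.

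**Figure D4:**
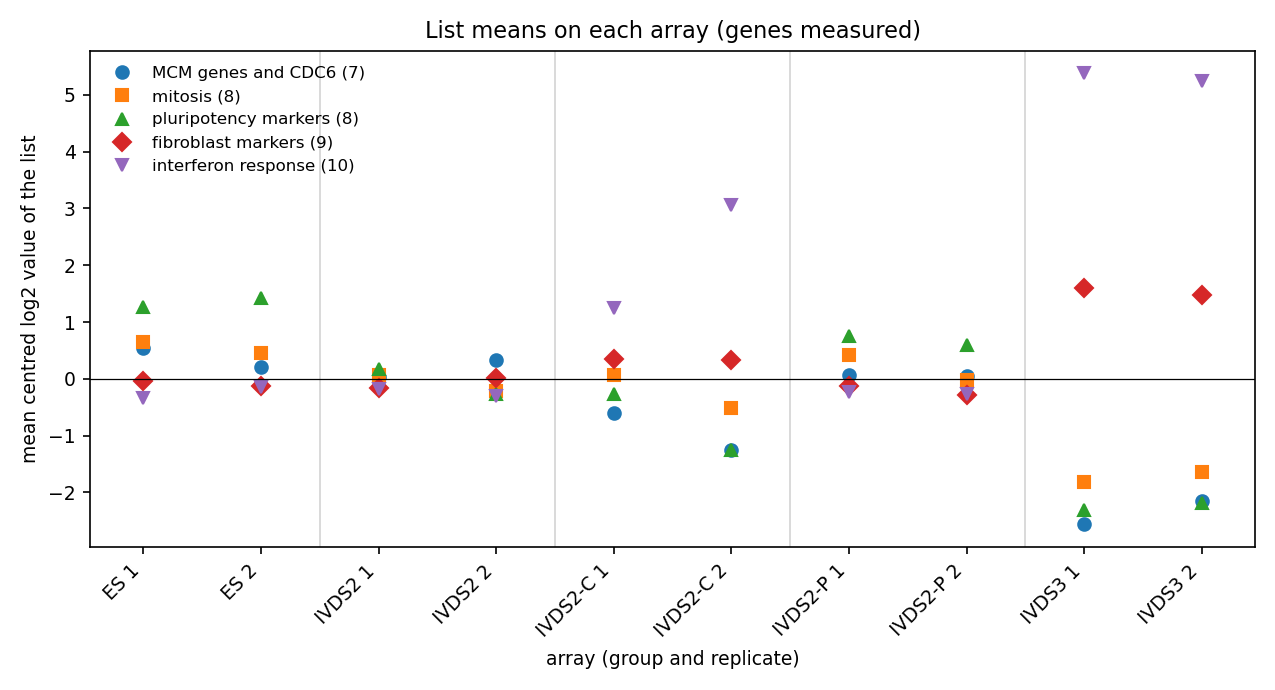
Mean centred log2 value of 5 gene lists (vertical axis) on each of the 10 arrays (horizontal axis), with the number of genes measured in brackets. The MCM genes and CDC6 lie at -2.56 and -2.15 in IVDS3, where interferon response genes lie at 5.38 and 5.25, and at -0.61 and -1.25 in IVDS2-C.

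The genes most like the set were sought among 3189 genes outside it whose group means spanned at least 1 log2 unit. By Pearson correlation over the 10 arrays with the mean of the 7 genes, the closest were CHAF1A, CAPZA2, CENPT, CEP78, GINS2, HAUS8, CDC45 and SNRPB, with correlations of 0.994 to 0.997. CHAF1A is the large subunit of the chromatin assembly factor, CENPT and HAUS8 act at the kinetochore and spindle, CEP78 at the centrosome, CAPZA2 caps actin filaments and SNRPB is a core splicing protein. CAPZA2 read -2.38 and -2.18 in IVDS3, -0.64 and -1.24 in IVDS2-C, 0.13 and 0.01 in IVDS2-P, -0.01 and 0.30 in IVDS2, and 0.72 and 0.34 in ES. Taken singly, the closest gene was SNRPB for MCM2, AIF1L for MCM3, ORC1 for MCM4, CHAF1A for MCM5 and MCM10, UHRF1 for MCM8 and CAPZA2 for CDC6, with correlations of 0.994 to 0.998. These correlations describe points that share the same arrays and group differences.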

How the data were processed

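Total RNA of 10 samples was hybridised to Affymetrix rhesus macaque arrays. Per the labels, the deposited values were made with RMA, whose version is not given in the sources used here. They are treated as log2 values: the base was inferred, since natural logs would turn the widest span of any deposited probe set, 9.51, into 13.7 log2 units. All probe sets are centred on the median of their arrays (0 of 44294 medians beyond 1e-05), so brightness filters, background correction and renormalization from raw intensities could not be run.

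After 84 control probe sets were left out, 44210 were tested: 22802 with 1 gene symbol, 316 with several and 21092 with none. Symbols came from the platform annotation, and all 7 member genes matched a RefSeq table by gene number. A gene value is the mean of its probe sets (13191 genes). One limma 3.58.1 model (R 4.3.3) with a term per group was fitted to all 10 arrays (5 residual degrees of freedom, prior 4.33), with 7 comparisons and Benjamini-Hochberg adjustment over all probe sets or genes within each. The names of further genes in counts of 5 or fewer were chosen after their values were seen. Called means adjusted p under 0.05. Errors are standard errors with n = 2 arrays per group, whose small number limits the precision. The fit was also run on simulated data, with noise drawn independently for each probe set and array. In the real data the MCM and CDC6 probe sets mostly shifted together between replicates, so no conclusion is drawn from that run.

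The members, 13 other gene lists and tests were chosen with earlier results of these data known. Named are all members, up to 4 called genes per list in IVDS3 against ES and up to 2 in IVDS2-C against IVDS2-P with the largest changes, the genes most like the set, POU5F1 and CDKN1A. Alternatives were array centring, a fit to the 4 arrays of a comparison alone, a block for the replicate number, a robust variance prior, a minimum log2 fold change of 1, leaving out each array, and the most variable probe set per gene.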

Additional observations from a re-analysis of the deposited data

How the results depend on the processing

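The counts of the 13 MCM and CDC6 probe sets called lower were unchanged by every alternative run for IVDS3 against ES (12), IVDS3 against IVDS2 (12), and IVDS2 and IVDS2-P against ES (0 each). When the colony centre was compared with ES, IVDS2-P or IVDS3, some fits without 1 array changed how many of the 13 were called lower. The number of all tested probe sets called lower also varied widely between these fits. For the centre against ES, the median log2 fold change of the 13 ranged from -1.75 to -1.08. Against the periphery the range was -1.26 to -0.70, and for IVDS3 against the centre it was -1.70 to -1.09. Where leaving out an array leaves 1 in a group, the array that remains is assumed to vary like the other groups. With only the 4 arrays compared, IVDS2-C against IVDS2-P had 1 call in place of 7. The median log2 fold change was -1.02 in both fits, and 451 of all tested probe sets were called lower in place of 882. The cause was not tested. With the replicate block the counts were 10 for IVDS2-C against ES, 6 for IVDS2-C against IVDS2-P and 11 for IVDS3 against IVDS2-C. The single calls lost under the block were the first MCM8 probe set (IVDS2-C against ES), the first CDC6 probe set (IVDS2-C against IVDS2-P) and the second MCM8 probe set (IVDS3 against IVDS2-C). Arrays of the same number deviated together only weakly, with correlations of -0.12 to 0.25 between groups, above 0.1 in 5 of 10 pairs of groups, so the numbers were not taken to pair the samples. No called result turned its direction under the alternatives run. How far signals stood above background could not be checked on centred values.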
